A study of Homo sapiens with 44 samples.

Results

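The 10 genes described here encode the elastic fibre and enzymes that cross-link it: elastin (ELN), the fibrillins FBN1 and FBN2, the fibulins FBLN1 and FBLN5, the lysyl oxidases LOX and LOXL1, the microfibril-associated proteins MFAP4 and MFAP5, and EMILIN1. They are 10 of the 60499 genes in the deposited tables, found by their symbols through GENCODE, and all 10 passed the filter on low counts. They were chosen for their function with their levels at days 20 to 90 known, so those levels are described without a test, and tests of these genes are confined to earlier days. The members were selected on function and on their CPM at days 20 to 90. Earlier results of these data were also known at that choice, so the tests at earlier days are not independent of it. RNA came from 44 culture wells of H1, a widely used line of human embryonic stem cells, as it was taken towards the cardiovascular lineage. Pluripotent cells were kept on the laminin LN-521, and 11 further groups, at days 0, 1, 3, 5, 7, 9, 11, 14, 20, 30 and 90, grew on LN-521 with LN-221. Laminins are basement membrane proteins to which cells attach. CHIR99021, which inhibits the kinase GSK3 and so activates Wnt signalling, was present at days 1 and 3. IWP2, which blocks Wnt secretion, was present at day 5, no inhibitor at days 7 and 9, and the CTS B-27 supplement from day 11. Days 5, 7, 9 and 11 have 5 wells and every other group has 3. No untreated wells of matching age enter these comparisons, so time, medium and treatment cannot be told apart.

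An elastic fibre has a core of cross-linked elastin laid on a scaffold of microfibrils. Fibrillins form the microfibrils, which also hold latent TGF-beta in store, and fibulin-5 and MFAP4 help to bring tropoelastin to them. Lysyl oxidases oxidise lysines in elastin and collagen so that the chains can be joined. In the heart and great vessels these proteins come chiefly from fibroblasts, smooth muscle and valve cells, and FBN2 is known as the fibrillin of embryonic tissue.

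All 10 genes are protein-coding in GENCODE release 29 on GRCh38. ELN lies at chr7:74027789-74069907 on the plus strand, FBN1 at chr15:48408306-48645849 and FBN2 at chr5:128257909-128659185, both on the minus strand. LOX lies at chr5:122063195-122078360 on the minus strand and LOXL1 at chr15:73925989-73952137 on the plus strand. Exons of 6 of them share bases with a gene on the opposite strand, and whether counting used the strand is not given in the sources used here. The overlap covers 2.5% of the exon bases of ELN (with ELN-AS1, which had 0 to 0.0384 CPM at days 20 and 90), 0.4% of FBN2 (SLC27A6), 2.5% of LOX (SRFBP1), 9.2% of LOXL1 (LOXL1-AS1), 4.8% of MFAP4 (MAPK7) and 1.7% of MFAP5 (HADHAP2). FBN1, FBLN1, FBLN5 and EMILIN1 share no exon base with another annotated gene.

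On some days the well lowest in FBN1 was the highest in FBN2, while on other days the same well was lowest in both. Because of the days with opposite orders, the sequences before their start sites are given here. RefSeq promoter entries (GRCh38.p14) matched 6 of the 10 genes, namely FBN1, FBN2, FBLN1, FBLN5, LOX and LOXL1. Each window is the 250 bases before the RefSeq start, 5′ to 3′ on the gene's own strand, with capitals marking motif matches. Both windows fall inside the longer GENCODE spans of their genes.
FBN1, chr15:48644971-48645220, minus strand: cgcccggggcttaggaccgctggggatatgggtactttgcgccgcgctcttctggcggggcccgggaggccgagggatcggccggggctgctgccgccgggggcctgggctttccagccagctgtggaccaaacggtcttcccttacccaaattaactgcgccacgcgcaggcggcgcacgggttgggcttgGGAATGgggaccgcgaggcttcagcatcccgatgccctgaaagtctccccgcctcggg
FBN2, chr5:128538246-128538495, minus strand: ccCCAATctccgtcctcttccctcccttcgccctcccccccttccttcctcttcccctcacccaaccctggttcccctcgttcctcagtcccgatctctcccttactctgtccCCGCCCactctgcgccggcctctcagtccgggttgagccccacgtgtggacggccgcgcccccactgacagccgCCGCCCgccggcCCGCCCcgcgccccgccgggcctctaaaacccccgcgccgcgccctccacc
The motifs searched on both strands were the TATA box TATAAA, the CCAAT box CCAAT, the GC box GGGCGG, the TEAD motif GGAATG, the SMAD motif CAGAC, the AP-1 motif TGANTCA and the SRF CArG box. The FBN1 window held 1 match, the TEAD letters starting at -58, and 12% of 27326 RefSeq windows of this length hold such a match. The FBN2 window held the CCAAT letters at -248, present in 33% of windows, and GC boxes on the reverse strand at -137, -63 and -51, present in 42.2%. These are letter matches only, and the lack of other matches says nothing about the factors.

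Levels of one gene are TMM-scaled CPM, its counts relative to library size, and group values are the mean ± SD of the wells. Levels of different genes are compared as TPM, which allow for length, and only within a well. Total estimated counts per well ranged from 6937136 to 33498022, and 3 counts correspond to 0.0919 to 0.41 CPM. The 5 pluripotent markers summed to a mean of 4913 CPM at day 0 and 10.6 at day 90, and the 5 cardiomyocyte markers (TNNT2, MYH6, MYH7, ACTN2, MYL7) to 41.4 and 28220 CPM. Several wells stand apart from others of their day. Day 90 replicate 4 had 50490 CPM of cardiomyocyte markers against 14870 and 19320 in replicates 2 and 5, and 2436 CPM of the 7 fibroblast markers against 15350 and 8154. Of the cardiomyocyte sum MYH7 alone gave 36480 CPM in replicate 4, against 4301 and 8055 in replicates 2 and 5. TNNT2, ACTN2 and MYL7 were also highest in replicate 4, while MYH6 was lowest there (904 CPM against 1685 and 1879). Replicate 4 was sequenced on lane 4 and the other day 90 wells on lane 5, so lane and well cannot be told apart there. The day 20 wells were on lanes 1, 2 and 3, so days 20 and 90 share no lane and lane and day are mixed in that comparison. At day 11, replicates 1 and 2 had 7174 and 4660 CPM of cardiomyocyte markers against 17460 to 18920 in the other 3 wells, and 4502 and 8592 CPM of liver-like endoderm markers against 154 to 167, with RNA integrity scores of 8.6 and 8 against 9.2 to 9.5. Day 9 replicate 2 likewise had 6105 CPM of liver-like endoderm markers against 467 to 1745 in the other wells of its day. In these bulk samples fewer cells of a type and less RNA per cell cannot be told apart.

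The make-up of the 10 transcripts changed over the course. FBLN1 held 58.4% ± 3.52 (SD, n = 3) of their summed TPM at day 0 and FBN2 12.2% ± 0.803. At day 3 FBN2 held 50.5% ± 1.02, at day 11 61.7% ± 24.2 (n = 5) and at day 30 51.2% ± 12.2. At day 90 it held 33.1% ± 24.8, MFAP4 26.6% ± 5.49 and ELN 13.0% ± 10.7. ELN had been at 0.424% ± 0.27 at day 30, and its day 90 wells ranged from 0.65% in replicate 4 to 20.0%.

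**Figure D1:**
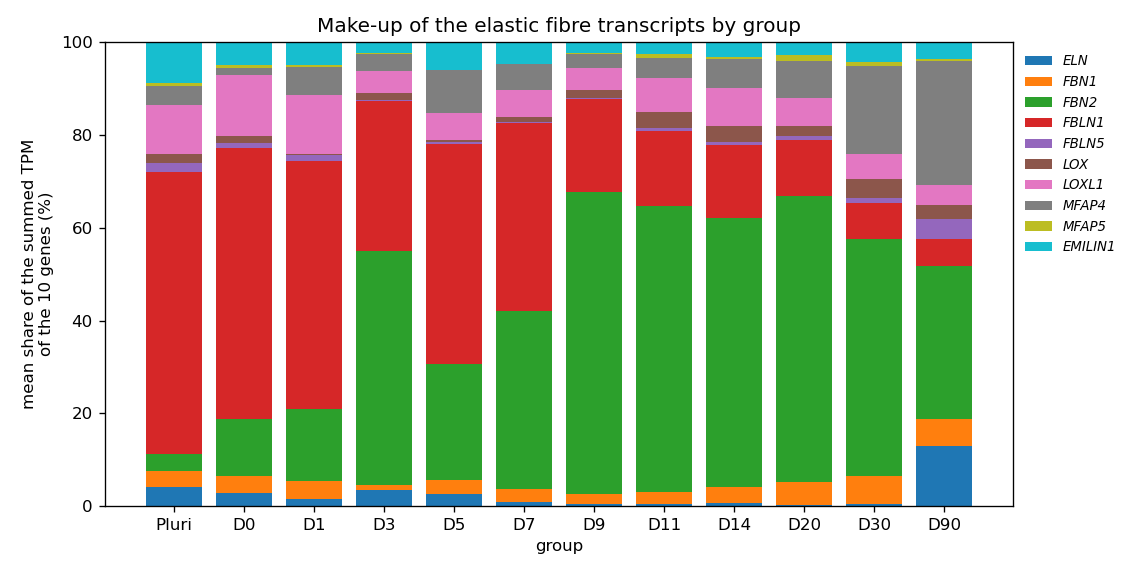
Mean share of each gene in the summed TPM of the 10 genes (percent, y axis) for each of the 12 groups (x axis). FBLN1 fills most of the bar at day 0 (58.4%), FBN2 at day 11 (61.7%), and ELN becomes visible at day 90 (13.0%).

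The first comparison, day 3 against day 0, spans the change from stem cell medium to medium with CHIR99021. FBN2 rose from 99.0 ± 1.2 to 1696 ± 54.8 CPM (n = 3 each), with wells at 98.0, 98.7 and 100.3 at day 0 and between 1645 and 1754 at day 3. MFAP4, a glycoprotein of microfibrils, rose from 2.14 ± 0.288 to 22.1 ± 2.95 CPM, and ELN from 6.64 ± 1.16 to 33.4 ± 6.32. FBLN1, a fibulin of basement membranes and elastic fibres, rose from 112.6 ± 11.2 to 264 ± 15.4. Over the 10 genes, the day 3 wells lay higher without overlap in 7, these 4 among them, lower in 1 and overlapped in 2. Of all genes, 58.2% had no overlap, 29% higher and 29.2% lower. The log2 fold changes were 4.10 ± 0.51 (SE) for FBN2 (edgeR, adjusted p = 5.6e-08), 3.37 ± 0.65 for MFAP4 (adjusted p = 0.00011), 2.33 ± 0.53 for ELN (adjusted p = 0.00091) and 1.23 ± 0.33 for FBLN1 (adjusted p = 0.0049). Calls required a change of at least 1 on the log2 scale and an adjusted p below 0.05. So 4 of 10 genes were called, all higher, where 16.6% of the 22955 genes tested were called, 7.81% higher and 8.76% lower. The median log2 fold change was 1.10 over the 10 genes and 0.017 over all genes.

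Among the 6 genes without a call, LOX gave 17.8 ± 12.1 CPM at day 3 against 5.00 ± 0.0893 at day 0 (log2 1.83 ± 0.75, adjusted p = 0.068), and its day 3 wells were spread from 5.13 to 29.2. EMILIN1, a glycoprotein at the border of elastin and microfibrils, had 33.1 ± 8.44 CPM against 16.9 ± 1.02 (adjusted p = 0.24). MFAP5 was at 0.203 ± 0.12 CPM against 0.72 ± 0.126 (adjusted p = 0.059), which is 19 to 26 counts a well at day 0 and 3 to 9 at day 3. FBN1, FBLN5 and LOXL1 had log2 fold changes of 0.58, -0.12 and 0.12, with adjusted p of 0.43, 0.93 and 0.84. The ratio of FBN2 to FBN1 in TPM was 1.05 ± 0.153 in pluripotent cells, 3.30 ± 0.225 at day 0 and 45.9 ± 5.68 at day 3.

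The comparison of day 5 with day 3 spans the change from CHIR99021 to IWP2. FBN2 fell to 460 ± 68.4 CPM (n = 5), with every well between 369 and 549, below all day 3 wells. ELN fell to 14.2 ± 2.6 CPM, with wells from 10.4 to 16.9 against 27.0 to 39.7 at day 3. LOX, which cross-links elastin and collagen, fell to 4.34 ± 4.78 CPM, but its day 5 wells ran from 1.04 to 12.4 and overlapped those of day 3. The log2 fold changes were -1.88 ± 0.39 for FBN2 (adjusted p = 0.00053), -1.23 ± 0.44 for ELN (adjusted p = 0.047) and -2.04 ± 0.64 for LOX (adjusted p = 0.022). So 3 of 10 genes were called, all lower, where 10.1% of all genes were called, 5.75% higher and 4.34% lower. Wells did not overlap in 2 genes, ELN and FBN2, both lower, where 34.3% of all genes had no overlap, 19.7% in the lower direction. The ELN call was lost with RLE scaling (adjusted p = 0.056) and without any 1 of the 8 wells (adjusted p from 0.059 to 0.16), and the LOX call was lost without any 1 of 5 of them. FBN2 kept its call in each of these fits.

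From day 5 to day 11 all 5 cardiomyocyte markers were called higher, and the elastic fibre genes changed in both directions. FBN2 rose to 1562 ± 810 CPM, LOX to 30.1 ± 28.6 and FBLN5, the fibulin that tethers elastin to cells, from 1.00 ± 0.511 to 3.88 ± 2.74. ELN fell to 2.17 ± 0.666 CPM and FBLN1 to 114 ± 23.5. Apart from MFAP5, given below, the wells of both days did not overlap in ELN and FBLN1 only, both lower. They overlapped in the other genes, FBN2, LOX and FBLN5 included. Of all genes, 25.5% had no overlap, 12.5% higher and 13% lower. The log2 fold changes were 2.80 ± 0.60 for LOX (adjusted p = 0.00036), 1.94 ± 0.50 for FBLN5 (adjusted p = 0.0025) and 1.77 ± 0.36 for FBN2 (adjusted p = 0.00017). They were -2.71 ± 0.43 for ELN (adjusted p = 5.6e-06) and -1.05 ± 0.26 for FBLN1 (adjusted p = 0.0015). Leaving MFAP5 aside, 3 of 9 genes were called higher and 2 lower, where 15.9% of all genes were called, 9.38% higher and 6.54% lower. FBLN1 sits at the threshold and gave -0.98 without day 11 replicate 6, and FBLN5 was not called on log2(TPM + 1) (0.57, adjusted p = 0.17). The LOX change ran from 2.10 without day 11 replicate 2 to 3.69 without day 5 replicate 3. MFAP5, a microfibril glycoprotein that also occurs away from elastin, had 2 to 5 counts a well at day 5 (0.119 ± 0.0407 CPM) and 4.69 ± 2.86 CPM at day 11. It passed the filter on low counts only through groups where it is high, so this difference is a description. Its size depends on the scale, at log2 5.23 on scaled counts and 2.89 on log2(TPM + 0.1).

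The day 11 wells split along their marker sums. FBN2 was 918 and 547 CPM in replicates 1 and 2 and 1735 to 2456 in replicates 5, 6 and 7, and MFAP5 was 1.67 and 1.71 against 5.99 to 8.06. LOX ran the other way, at 39.7 and 76.3 CPM in replicates 1 and 2 against 10.2 to 13.7, and so did FBLN5 (5.15 and 8.07 against 1.32 to 2.49) and FBN1 (83.4 and 119 against 45.4 to 50.7). In TPM the FBN2 to FBN1 ratio was 11.4 and 5.01 in replicates 1 and 2 and 91.7, 74.4 and 40.1 in the others. Replicates 1 and 2 are also the wells low in cardiomyocyte and high in liver-like endoderm markers. They were highest in the fibroblast markers too, at 3439 and 6743 CPM against 1948 to 2651. The part of these cell types in the result was not tested. Without these wells, a fit added after the data were seen, FBN2 (log2 2.20), ELN (-2.85) and FBLN1 (-1.18) kept the call, while LOX gave 1.41 (adjusted p = 0.058) and FBLN5 1.03 (adjusted p = 0.14).

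**Figure D2:**
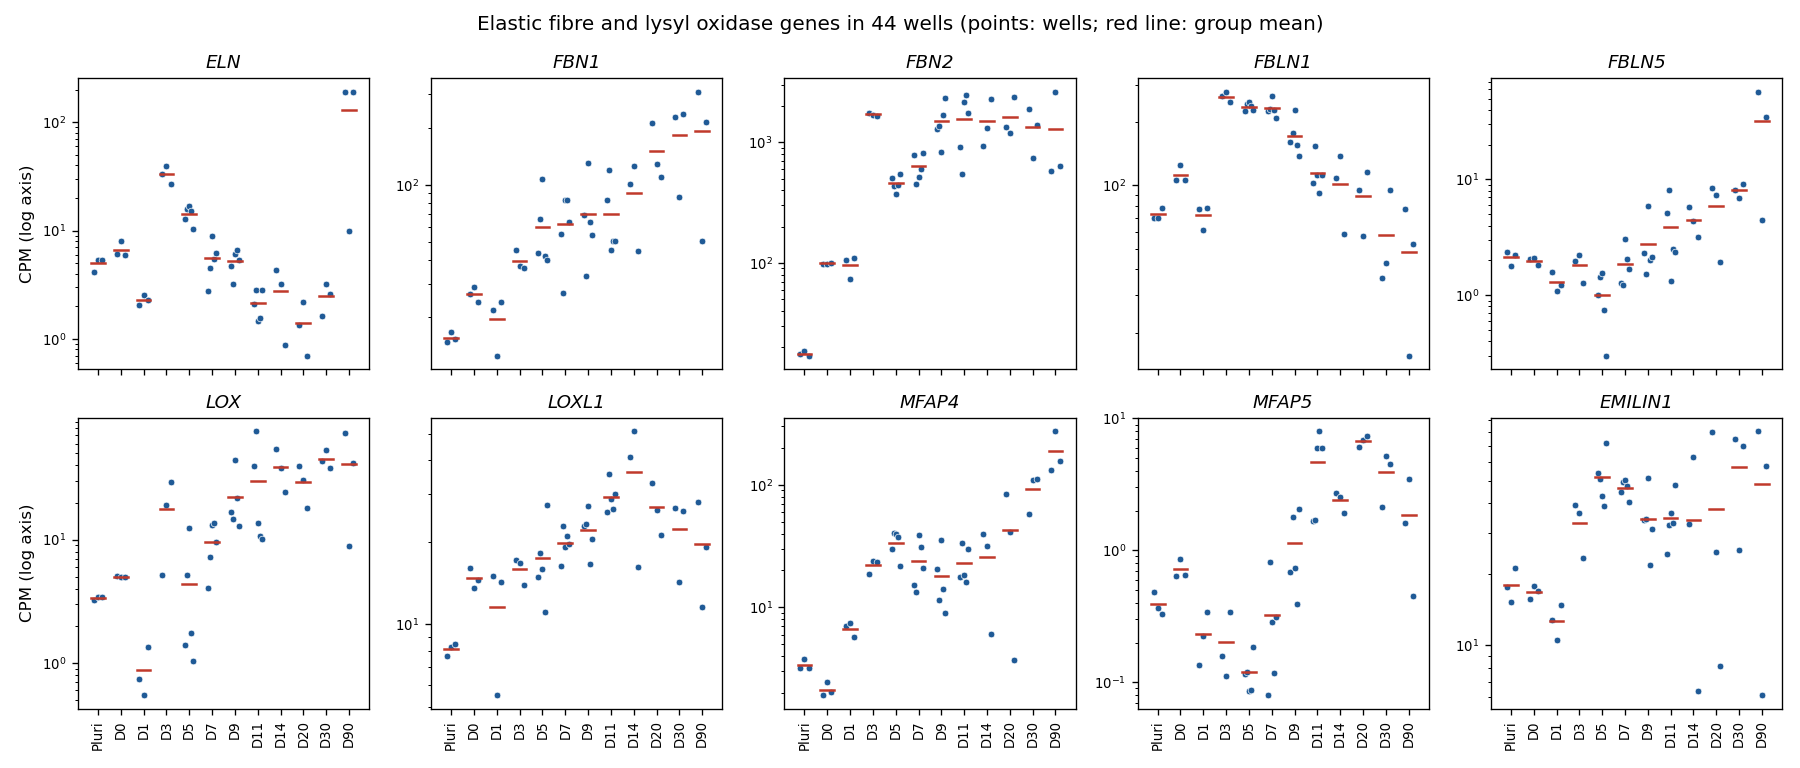
CPM of each gene (log y axis, 1 panel a gene) in the 44 wells by group (x axis), with points for wells and a red line for the group mean. ELN has peaks at day 3 (33.4 CPM) and day 90 (131 CPM) with lower means between, and FBN2 is lower at day 5 (460 CPM) than at days 3 and 11 (1696 and 1562 CPM).

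From day 20 on the values are a description. Between days 20 and 90 the summed liver-like endoderm markers went from a mean of 2221 to 50.3 CPM and the cartilage markers from 631 to 153 CPM, and their part in what follows was not tested. Elastin was the gene that stood out at day 90. ELN was at 1.34, 2.19 and 0.694 CPM in the 3 wells of day 20 and at 1.63, 3.20 and 2.59 in those of day 30. At day 90 it was at 192, 9.95 and 190.4 CPM in replicates 2, 4 and 5. Each day 90 well lay above every well of days 20 and 30, but replicate 4 sat far below the other 2. Against the day 20 mean of 1.41 CPM the day 90 wells were 136, 7.06 and 135-fold as high, and against the day 30 mean of 2.48 CPM 77.7, 4.02 and 77.0-fold. The log2 fold change of day 90 against day 20 was 6.68, and 7.24 without replicate 4. On the deposited TPM with 0.1 added it was 4.16, where the median of 12858 expressed genes was itself at -0.95.

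The lysyl oxidases and FBLN5 were lowest in replicate 4 among the day 90 wells, as the summed fibroblast markers were, and the part of fibroblasts in this was not tested. LOX was at 39.5, 30.5 and 18.2 CPM at day 20, at 43.3, 53.8 and 38.1 at day 30, and at 73.4, 8.91 and 41.8 in replicates 2, 4 and 5 of day 90. LOXL1, the lysyl oxidase tied to elastic fibre upkeep, was between 21.3 and 33 CPM at day 20, 14.3 and 26.7 at day 30 and 11.6 and 28.2 at day 90. For both genes the groups overlapped. FBLN5 was at 8.44, 7.39 and 1.94 CPM at day 20 and 8.15, 6.87 and 9.17 at day 30, and at 57.4, 4.45 and 34.9 at day 90. Replicates 2 and 5 lay above all earlier wells, replicate 4 within them. The log2 fold change of FBLN5 against day 20 was 2.46. It ran from 1.75 without day 90 replicate 2 to 2.98 without replicate 4, and was 1.07 on log2(TPM + 0.1).

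The fibrillins took opposite orders among the day 90 wells. FBN1, the fibrillin of mature microfibrils, was at 310, 50.5 and 213 CPM in replicates 2, 4 and 5, against 213, 129 and 110 at day 20. FBN2 was at 578, 2623 and 630 CPM in the same wells, against 1334, 1197 and 2363 at day 20 and 1877, 738 and 1400 at day 30. The well lowest in FBN1 was thus the highest in FBN2, and both groups overlapped the earlier ones. The TPM ratio of FBN2 to FBN1 was 7.79 to 9.07 in the day 30 wells, and 1.92, 64.7 and 2.75 in replicates 2, 4 and 5 of day 90. The fitted change of FBN2 from day 20 to day 90 was -0.35 (log2). It was -1.43 without replicate 4 and 0.01 without day 20 replicate 3. In day 90 replicate 4 the fibroblast markers and smooth muscle markers (441 CPM against 1402 and 1250) were also the lowest of that day. Their part in these values was not tested.

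**Figure D3:**
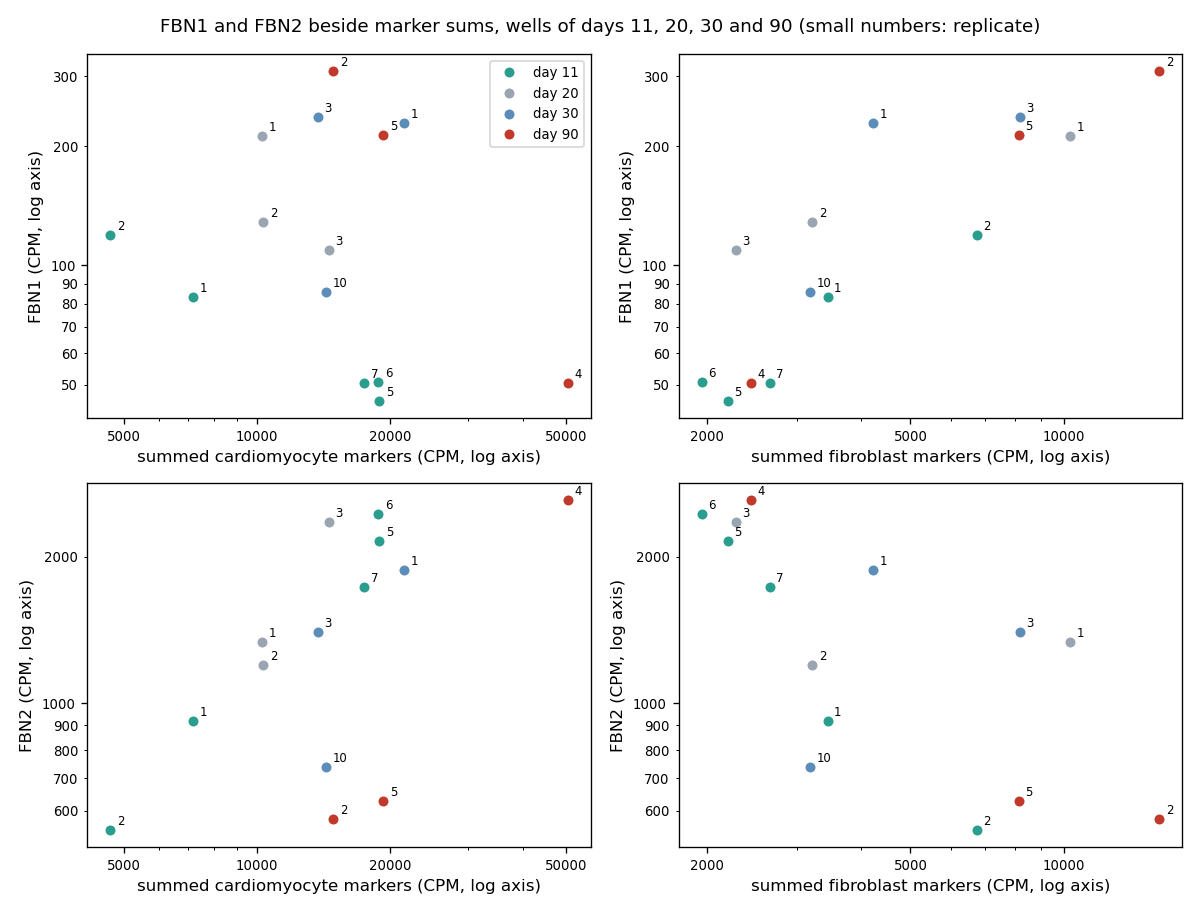
FBN1 (top) and FBN2 (bottom) in CPM (log y axes) beside the summed CPM of 5 cardiomyocyte markers (left) and 7 fibroblast markers (right, log x axes), 1 point a well of days 11, 20, 30 and 90, coloured by day and marked with the replicate number. Day 90 replicate 4 lies at 50490 CPM of cardiomyocyte markers (36480 of them MYH7) with 2623 CPM of FBN2 and 50.5 of FBN1, apart from replicates 2 and 5.

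MFAP4 differed from this pattern. It was at 84.4, 41.5 and 3.69 CPM at day 20, between 58.2 and 111 at day 30, and at 133, 275.5 and 155.5 in replicates 2, 4 and 5 of day 90. In CPM all day 90 wells lay above the earlier wells, and replicate 4, the lowest for 7 of the other 9 genes, was the highest. In TPM the ranges of MFAP4 overlapped, at 21.98 to 60.01 at day 90, 1.13 to 24.35 at day 20 and 13.06 to 47.84 at day 30. The log2 fold change against day 20 was 2.12, and 1.84 on TPM. It was 3.23 without day 20 replicate 1 and 1.57 without day 20 replicate 3. Against day 30 it was 1.01 on scaled counts and 0.05 on TPM, where the median gene was at -0.84. MFAP5 lay at 6.06, 6.84 and 7.38 CPM at day 20, at 2.12, 5.23 and 4.49 at day 30 and at 1.61, 3.48 and 0.448 at day 90. Its day 30 and day 90 wells lay below those of day 20. In TPM its day 30 wells (0.47 to 2.81) overlapped those of day 20 (1.64 to 3.13).

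EMILIN1 and FBLN1 overlapped between the late groups. EMILIN1 was at 80.4, 24.8 and 8.18 CPM at day 20 and at 81.3, 6.12 and 57.6 at day 90. The low wells at day 14 (replicate 6, 6.37 CPM) and day 20 (replicate 3) were also the lowest of their day in MFAP4 (6.12 and 3.69 CPM). They were lowest in most of the 10 genes and in the summed epicardial markers (14.9 and 14.6 CPM against 81.4 to 184 in the others). The fibroblast markers were lowest there too (1385 and 2272 CPM against 3210 to 10260). At day 90, replicate 4 was lowest in EMILIN1 but had more epicardial markers (97.3 CPM) than replicate 5 (60.3 CPM). These relations were not tested. FBLN1 was at 94.8, 57.7 and 115 CPM at day 20 and at 76.9, 15.5 and 52.9 at day 90. Over the whole list, in CPM, ELN and MFAP4 were higher and MFAP5 lower without overlap at day 90 against day 20. That is 3 of 10 genes, where 28.2% of all genes had ranges that did not overlap. Against day 30 these were ELN and MFAP4, 2 of 10 where all genes gave 13.8%, and at day 30 against day 20 MFAP5, 1 of 10 where all genes gave 8.79%. By direction these backgrounds were 13.3% higher and 14.9% lower at day 90 against day 20, 7.68% and 6.16% at day 90 against day 30, and 4.22% and 4.57% at day 30 against day 20. The shares of the 10 genes lie near those of all genes, so these counts set nothing about the list apart.

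**Figure D4:**
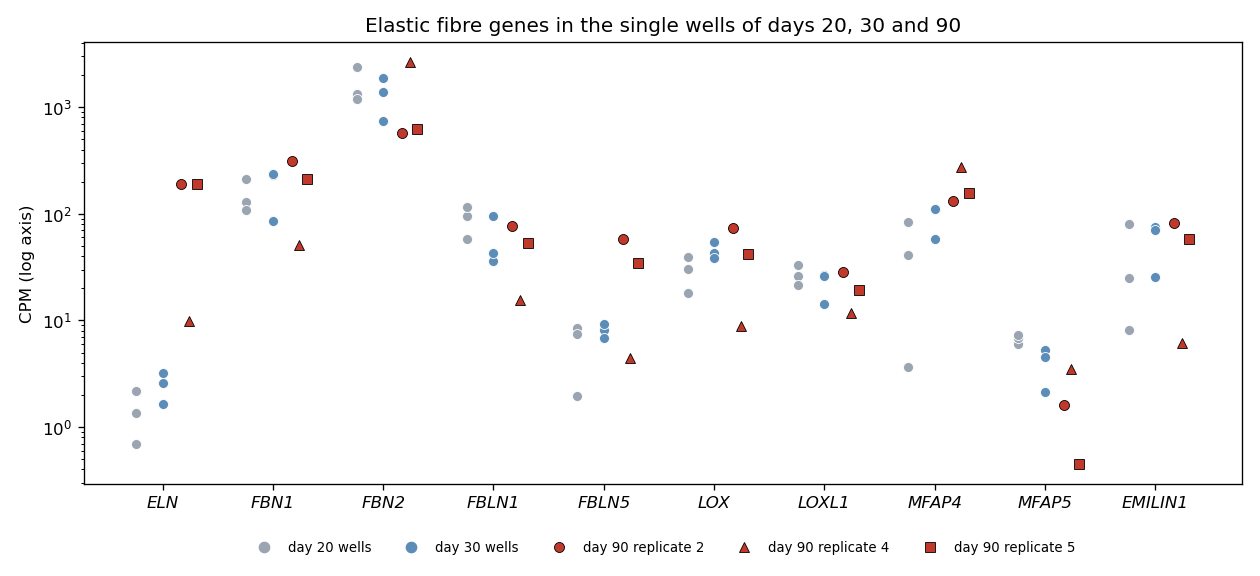
CPM (log y axis) of each gene (x axis) in the single wells of days 20 (grey), 30 (blue) and 90 (red, with 1 symbol a replicate). In ELN the day 90 wells lie at 9.95 to 192 CPM above every earlier well, and the triangle of replicate 4 is the lowest red symbol in 7 of the 10 genes and the highest in FBN2, MFAP4 and MFAP5.

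Other genes of the pathway, 42 listed and 41 tested, are no members and were tested in every comparison. At day 90 against day 20, 8 of 41 were called higher and 9 lower, where 15.4% of all genes were called, 7.04% higher and 8.35% lower. With only the wells of these days in the fit, 3 of 41 were called, and 759 of all genes in place of 3532. The liver-like endoderm and cartilage markers given above also differ between these days, which share no sequencing lane. By list, 6 rose and 4 fell among 18 structural genes, 2 rose and 3 fell among 8 genes of TGF-beta signalling, and 2 of 9 degradation genes fell. None of the 6 genes of cross-linking and its activation, further lysyl oxidases among them, was called, here or against day 30. EFEMP1, a fibulin, rose from 26.3 ± 6.76 to 70.6 ± 43.2 CPM (log2 1.43 ± 0.29, adjusted p = 0.00034), and MFAP2, a microfibril protein that binds fibrillin, from 41.8 ± 15.7 to 93.3 ± 23.7 (1.15 ± 0.19, adjusted p = 2e-05). Without day 90 replicate 2 their changes were 0.80 and 0.93, under the fold threshold, and MFAP2 also gave 0.98 without day 20 replicate 2. TGFBR2, the type II receptor for TGF-beta, rose from 22.3 ± 0.86 to 77.3 ± 0.494 CPM (1.79 ± 0.26, adjusted p = 4.8e-06) and was between 76.7 and 77.7 in all 3 day 90 wells, replicate 4 included. On log2(TPM + 0.1), where the median gene shifted by -0.95, TGFBR2, EFEMP1 and MFAP2 gave 0.77, 0.27 and 0.23 and were not called. LTBP3, which binds latent TGF-beta, rose from 35.4 ± 7.96 to 77.4 ± 45.2 CPM (1.13 ± 0.29, adjusted p = 0.004), a call that was lost without day 90 replicate 4 (0.56, adjusted p = 0.15) and that turned to -0.33 on log2(TPM + 0.1).

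The TGF-beta side also held falls. TGFB2, a ligand, fell from 120 ± 22.6 to 33.2 ± 14.0 CPM (log2 -1.85 ± 0.34, adjusted p = 0.00013), and TGFBI, a matrix protein induced by TGF-beta, from 455 ± 209 to 111 ± 96.3 (-2.03 ± 0.53, adjusted p = 0.004). Leaving out 1 well moved TGFBI between -2.81 (without day 90 replicate 5) and -1.50 (without replicate 4), and it stayed called. Of the proteases, MMP2 fell from 133 ± 25.4 to 38.5 ± 30.7 CPM (-1.79 ± 0.41, adjusted p = 0.0013), and stayed called between -2.52 without day 90 replicate 2 and -1.30 without replicate 4. MMP9, which can degrade elastin, was at 9.52, 9.58 and 22.7 CPM at day 20 and had at most 1 count in a day 90 well, so it was at least 81.7-fold lower against a floor of 3 counts per well.

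Against day 30, 5 of 41 were called higher and 6 lower, where 5.09% of all genes were called, 2.65% higher and 2.44% lower. EMILIN3, of the EMILIN family, rose from 0.822 ± 0.0438 to 9.72 ± 2.01 CPM (log2 3.56 ± 0.41, adjusted p = 4.4e-07). FBLN2, a fibulin, rose from 27.0 ± 2.32 to 115 ± 97.5 (2.09 ± 0.51, adjusted p = 0.0072), but was 14.8 CPM in replicate 4, and the call was lost without replicate 2 (1.33, adjusted p = 0.11). MMRN2, an endothelial multimerin, fell from 7.83 ± 9.62 to 0.991 ± 0.738 (-2.93 ± 0.64, adjusted p = 0.0028). This fall rests on day 30 replicate 3, at 18.9 CPM, and gave a log2 fold change of -1.14 (adjusted p = 0.29) without it. In the earlier comparisons 8 of 41 were called higher and 3 lower at day 3, 7 and 2 at day 5, and 10 and 3 at day 11, where 16.6%, 10.1% and 15.9% of all genes were called. At day 30 against day 20, 2 of 41 were called, both lower, where 2.02% of all genes were called, 0.758% higher and 1.26% lower. These were EMILIN3 (log2 -1.77) and FBN3, another fibrillin (-2.14), the latter named after its values were seen. Without day 20 replicate 1 EMILIN3 gave -1.16 (adjusted p = 0.16) and was not called. FBN3 gave -1.35 (adjusted p = 0.043) without day 20 replicate 3, and neither gene was called on log2(TPM + 0.1) (adjusted p = 0.17 and 0.34).

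**Figure D5:**
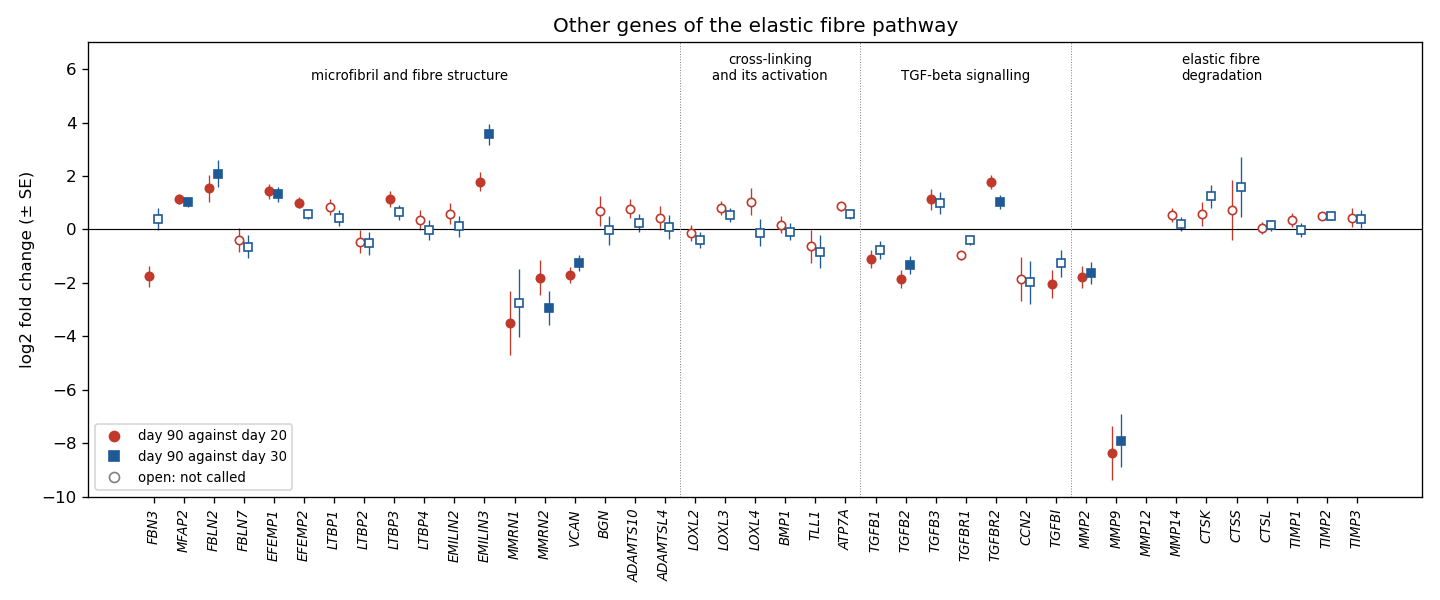
Log2 fold change ± SE (y axis) of 40 of the other pathway genes (x axis, by list) at day 90 against day 20 (circles) and day 30 (squares), filled where called. TGFBR2 (1.79) and EMILIN3 (3.56) lie above 0, TGFB2 (-1.85) and MMP2 (-1.79) below, and the fitted MMP9 points are no bound because day 90 wells had at most 1 count.

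For each gene the most similar others were sought among 12283 protein-coding genes by Pearson correlation of log2 CPM over the 44 wells, which share time course and lanes, so r is a description only. ELN was nearest to LTBR (r = 0.83), a receptor of the TNF receptor family, and to MFAP2 (0.707), while on log2(TPM + 1) its nearest was KRT15 (0.791). FBN1 was nearest to COL1A2 (0.908), a chain of type I collagen, and FBN2 to PTH1R (0.945) and COL5A1 (0.928), the latter a chain of type V collagen. FBLN1 was nearest to DDAH2 (0.916), FBLN5 to PENK (0.891) and LOX to C7 (0.862). LOXL1 was nearest to SOX6 (0.839), MFAP4 to UBA7 (0.877), MFAP5 to INHA (0.884) and EMILIN1 to SPON2 (0.743), with PDGFRB, a receptor of mural cells and fibroblasts, at 0.737. The 10 genes themselves were left out of the search.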

How the data were processed

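RNA of 44 wells was sequenced from stranded total-RNA libraries, per the labels' protocols. Per the submitters' processing notes the reads were handled with cutadapt, STAR 2.5.2b and RSEM 1.2.31 on hg38. The annotation and the strand setting are not given in the sources used here. The deposited gene tables hold RSEM's estimated counts without any scaling across wells, of which 93.8% were whole numbers, and TPM, which sum to the same total in each library. A further deposited table gives the RNA integrity score of each library (7.4 to 10) and its sequencing lane (5 lanes).

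Counts were rounded to whole numbers, scaled by TMM and filtered by filterByExpr to 22955 genes in edgeR 4.0.16, under R 4.3.3. Its quasi-likelihood test used all 44 libraries with each group as its own level, and p values were adjusted over all genes (Benjamini-Hochberg). Genes were called at an adjusted p under 0.05 and a log2 fold change of at least 1. DESeq2 1.42.0 and limma 3.58.1 on log2(TPM + 1) and log2(TPM + 0.1) were alternatives, beside other scaling, filters, leaving out wells and lane as a term. Counts were also simulated for day 5 against day 3 only, with 200 of 22955 genes changed 4-fold. The quasi-likelihood test called 190 of the 200 and 11 other genes there. No other comparison was simulated. These numbers therefore do not check the calls of the later comparisons, nor the pooling of spread over all 44 libraries. Symbols come from GENCODE 29, which held 56769 of 60499 identifiers.

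The 10 genes, the pathway and marker lists and all rules were chosen with earlier results of these data known. Pathway genes are named where called at day 90 against day 20 or day 30, at most 6 rises and 6 falls, with at least 1 CPM in the higher group. The values of 1 such gene are not reported here, and it stays in the counts. The labels call wells biological replicates and do not say that they came from separate differentiations. The p values thus measure a spread between wells, which may be technical. This spread is estimated within groups over all 44 libraries, so SE and p values do not give the spread of only the wells compared. The series text gives 3 wells for day 11 and the labels 5, and all 5 were used. The labels name no unique molecular identifiers, so floors of 3 counts cover counting error only.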

Additional observations from a re-analysis of the deposited data

Results flagged for a closer look

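At day 9, replicate 2 stood apart from the other 4 wells in 2 genes. LOX was at 44.21 CPM there and between 12.92 and 21.63 CPM in the others, and FBLN5 was at 5.925 CPM against 1.54 to 2.313. The gap to the nearest well was 0.722 and 0.824 of the whole range, above the 0.71 that Dixon's test sets for 5 wells. The same well had 6266 CPM of fibroblast markers against 2237 to 3116 in the others, 6105 CPM of liver-like endoderm markers against 467 to 1745, and 6105 CPM of cardiomyocyte markers against 11150 to 14250. Their part in the LOX and FBLN5 values was not tested. In all, 40 combinations of gene and group with 5 wells were examined, and chance alone flags about 1 in 20.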

How the results depend on the processing

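The settings that moved counts of calls most were the fits on TPM and the fit to only the 2 groups compared. Over all genes, log2(TPM + 1) gave 1736 calls at day 3 against day 0 (3803 in the main model; 66.9% higher against 47.1%), 1050 at day 5 against day 3 (2317; 27.8% against 57% higher), 1281 at day 11 against day 5 (3655; 35.1% against 58.9%) and 67 at day 30 against day 20 (463; 64.2% against 37.6%). With log2(TPM + 0.1) the counts were 83 at day 30 against day 20, 3550 at day 90 against day 30 (1168; 3.6% against 52.1% higher) and 7826 at day 90 against day 20 (3532; 4.4% against 45.7%). RN7SL1 and RN7SL2 took a mean of 49.6% of all TPM at day 90 and 35.0% at day 20, and the cause of these differences was not tested. Of the 10 elastic fibre genes log2(TPM + 1) called 1 at day 5 against day 3 (3). Of the other pathway genes it called 7 at day 11 against day 5 (13) and 11 at day 90 against day 20 (17).

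With only the 2 groups compared, which leaves fewer samples, edgeR gave 759 calls (66.1% higher) at day 90 against day 20, 3 at day 90 against day 30 and 0 at day 30 against day 20 (1054 at an unadjusted p under 0.05; 711 by DESeq2 on all groups). Pathway genes called there were 3, 0 (14 unadjusted) and 0 (4 unadjusted). At day 30 against day 20 both TPM fits by limma called 0 of them (3 unadjusted in each). With lane as a term, chosen after seeing the data, 730 genes were called at day 90 against day 30. The same fit gave 2632 calls at day 90 against day 20 (3532 in the main model), with 12 pathway genes called (17). LTBP3 at day 90 against day 20 reversed to -0.287 on log2(TPM + 1) and -0.328 on log2(TPM + 0.1).

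Leaving out 1 well at a time gave 352 to 958 calls at day 30 against day 20 (958 without day 30 replicate 3) and 742 to 1819 at day 90 against day 30 (742 without day 30 replicate 3, 1819 without day 30 replicate 10). It gave 1 to 2 of the elastic fibre genes at day 5 against day 3, and 1 to 4 and 7 to 12 of the pathway genes at day 30 against day 20 and day 90 against day 30 (7 without day 90 replicate 2). Same-numbered wells did not deviate together (correlations from -0.169 to 0.167), so the numbers were not taken as pairs. With the replicate block, ELN at day 5 against day 3 (-1.13, adjusted p = 0.075), FBLN1 at day 11 (-0.97) and LTBP3 at day 90 against day 20 (0.86) were not called, and LOX (1.65) and MFAP5 (-1.82) at day 3 against day 0 were. No pair of numbers links day 90 with day 30. Depth limits MFAP5 at day 5, with 2 to 5 counts a well.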
